A study of Sus scrofa with 12 samples.

Results

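Heme is the iron-holding ring of hemoglobin, of the cytochromes and of catalase. The liver is known as a main site of its synthesis outside the bone marrow, since hepatocytes need it for cytochromes P450. Synthesis starts in the mitochondrion with ALAS1, the rate-limiting enzyme, which joins glycine and succinyl-CoA. It then runs through enzymes such as ALAD, UROS and UROD in the cytosol and ends with CPOX, PPOX and FECH, and FECH inserts the iron. Heme oxygenases, HMOX1 which is inducible and HMOX2 which is constitutive, open the ring to biliverdin, and biliverdin reductases turn biliverdin into bilirubin.

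The enzymes described here were named by 9 gene symbols, ALAS1, ALAD, UROS, UROD, CPOX, PPOX and FECH for synthesis and HMOX1 and HMOX2 for breakdown. Of these symbols, 7 label a row of the mRNA tables, which hold 31694 rows, and 6 of the 7 could be tested. No row carries the symbol ALAD or HMOX2. RefSeq names (assembly Sscrofa11.1) give both a row, since the gene ID of ALAD matches LOC100621486 and HO2 is a synonym of HMOX2. HMOX2 is therefore described from the row HO2 and is left out of the counts of the 6 members tested.

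The expression values came from the liver of 3 Jinhua (JH) pigs and 3 Landrace (LD) pigs, all uncastrated males aged 70 days, with 1 mRNA library per pig. JH, a native pig of China, is labelled as the experiment group, and LD, a commercial breed, as the control. No treatment is stated. Litters and rearing are not given in the sources used here, so breed and any difference in rearing cannot be told apart. Each value is an RPKM, the reads of a gene scaled to its length and to the size of its library, so levels can be compared between genes.

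The read totals, worked out from the RPKM steps, ranged from 5744908 to 7914515 per library. They are the totals to which RPKM was scaled, and they lie below the clean reads that the paper reports for each library. The hepatocyte product ALB (albumin) was between 27533 and 53893 RPKM. JH3 and LD3 stood apart in 18S ribosomal RNA, with 62257 and 20160 RPKM of RN18S against 1570 to 7309 in the other libraries, and in the median log2 level of the genes tested, with 2.10 in both against 2.35 to 2.42. Fold changes are JH over LD on the log2(RPKM + 0.1) scale from limma over 12993 genes. To be called, a gene needed both an absolute log2 fold change above 1 and a p under 0.05 after Benjamini-Hochberg adjustment. Exact permutation tests were two-sided, and with 3 pigs against 3 the smallest p they allow is 0.1. In bulk liver, fewer cells of a type and less RNA per cell cannot be told apart.

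ALAS1, the first enzyme, and HMOX2, the constitutive heme oxygenase, were higher in every JH library than in every LD library, and neither was called. Of all genes tested 10.8% had every JH value above every LD value. UROS, UROD, CPOX, PPOX and FECH overlapped between the breeds. None of the 6 members tested passed the adjusted threshold, against 310 of 12993 genes (2.39%) over the whole table. At an unadjusted p under 0.05 in limma, 1 of the 6 members differed, namely ALAS1, which was higher in JH, where 1085 of all genes tested (8.35%) were higher in JH. With voom on recovered reads 0 of the 6 were called, beside 3.16% of all genes, and after median scaling 0 of the 6, beside 2.96%. HMOX2, which is not among the 6, was called under both (adjusted p = 0.0343 and 0.0278 from limma). The median log2 fold change of the 6 members was 0.35, beside 0.037 over all genes tested. It was 0.10 without LD3, 0.22 without JH1, 0.53 without JH3 and 0.21 under quantile normalization. The median of 8 tested genes often used as references was 0.45, and that of 5 further heme enzymes was 0.46.

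The level of ALAS1 was 621 RPKM in JH1, 437 in JH2 and 410 in JH3. In the LD libraries it was 88.0 RPKM in LD1, 182 in LD2 and 300.1 in LD3. The lowest JH value lay above the highest LD value, with LD3 nearest to JH. Behind the levels stood 5470 to 6151 reads in each JH pig and 1077 to 4095 in each LD pig, so counting error was small beside the spread between pigs.

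For ALAS1 the JH mean was 489 ± 115 RPKM (SD, n = 3), against an LD mean of 189.9 ± 106 RPKM (SD, n = 3). The log2 fold change was 1.51 (standard error 0.42, 95% interval 0.57 to 2.45), a fold of 2.85, with an unadjusted p of 0.00542 and an adjusted p of 0.106 from limma. The exact permutation test gave p = 0.1. Of all genes tested 10.8% had every JH value above every LD value. No fit with 1 library removed called ALAS1. The estimate was 1.04 without LD1, the lowest LD library, and 1.93 without LD3, the highest.

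The level of HMOX2, read from the row HO2, was 158 RPKM in JH1, 124 in JH2 and 88.5 in JH3. In LD it was 57.2 RPKM in LD1, 55.5 in LD2 and 48.5 in LD3. All JH values lay above all LD values, as in 10.8% of the genes tested. The LD pigs lay close together where the JH pigs were spread. Each JH pig gave 1160 to 1633 reads of this row and each LD pig 651 to 743.

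For HMOX2 the JH mean was 123 ± 34.6 RPKM (SD, n = 3), against an LD mean of 53.7 ± 4.59 RPKM (SD, n = 3), a fold of 2.24. The log2 fold change was 1.16 (standard error 0.27, 95% interval 0.56 to 1.77), with an unadjusted p of 0.0018 and an adjusted p of 0.0608 from limma, just short of the limit. The exact permutation test gave p = 0.1. HMOX2 was called with voom on recovered reads (log2 fold change 1.16, adjusted p = 0.0343) and after shifting each library to the same median (1.15, adjusted p = 0.0278). It was also called without JH3 (1.38, adjusted p = 0.0262), the JH library with the lowest HMOX2 and the most RN18S, and the other 5 fits that left out 1 library gave no call.

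**Figure D1:**
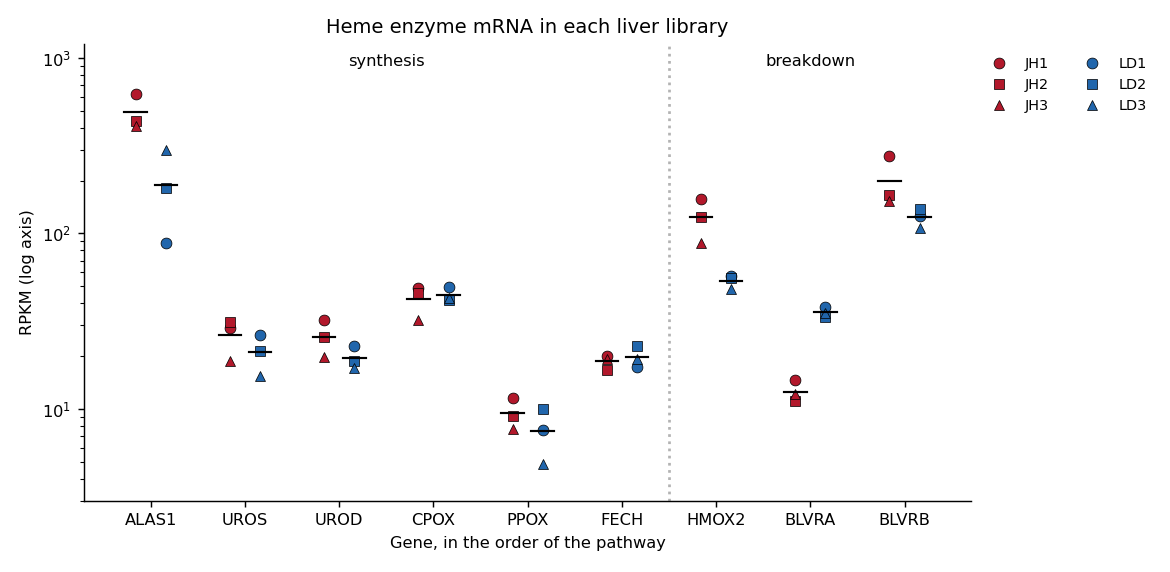
Level of each heme enzyme in RPKM (y axis, log scale) in the 3 JH libraries (red) and the 3 LD libraries (blue), with synthesis left of the dotted line and breakdown right of it. Symbols mark the library and horizontal lines the mean of a breed. ALAS1 and HMOX2 have every JH value above every LD value, BLVRA has every LD value (33.6 to 37.9) above every JH value (11.1 to 14.5), and UROS, UROD, CPOX, PPOX and FECH overlap.

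The 5 later synthesis enzymes that could be tested did not pass the test, and their intervals bound the difference. UROS, which closes the ring as uroporphyrinogen III, was 29.1, 31.5 and 18.7 RPKM in JH1 to JH3 and 26.6, 21.5 and 15.4 RPKM in LD1 to LD3. Its log2 fold change was 0.32 (95% interval -0.36 to 1.00, adjusted p = 0.624 from limma). In both breeds the lowest value was that of replicate 3, the libraries rich in RN18S.

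UROD, which trims the acetate side chains, was 32.2, 25.7 and 19.8 RPKM in the JH libraries and 22.7, 18.7 and 17.2 RPKM in the LD libraries. Its log2 fold change was 0.38 (95% interval -0.21 to 0.98, adjusted p = 0.484 from limma). The JH and LD values overlapped only through JH3, which lay between LD1 and LD2. After each library was shifted to the same median, JH3 reached 22.5 RPKM and lay above LD1 with 21.8, and UROD still did not pass (log2 fold change 0.37, adjusted p = 0.33 from limma). The part of library composition in these values was not tested further.

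CPOX, the first of the mitochondrial steps that end the pathway, had 48.6, 45.6 and 32.1 RPKM in the JH libraries and 49.3, 41.5 and 42.7 RPKM in the LD libraries. The breeds were alike in their means, with a log2 fold change of -0.099 (95% interval -0.66 to 0.46, adjusted p = 0.872 from limma). The direction rested on JH3, since without it the log2 fold change was 0.086.

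PPOX, which makes protoporphyrin IX, was the lowest of the members above 0, with 11.6, 9.15 and 7.64 RPKM in JH and 7.55, 9.99 and 4.83 RPKM in LD. JH over LD gave 0.38 on the log2 scale (95% interval -0.33 to 1.09, adjusted p = 0.573 from limma). The reads behind it were few, from 97 in LD3 to 200 in LD2.

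FECH, which closes synthesis by inserting iron, was 20.02, 16.7 and 19.2 RPKM in JH and 17.2, 22.8 and 19.2 RPKM in LD. The estimate was -0.077 on the log2 scale (95% interval -0.60 to 0.44, adjusted p = 0.896 from limma), and it turned to 0.030 without LD2. FECH rests on 62 to 97 reads per library. The length recovered for its row was 539 bases, the shortest among the 7 members with a level above 0.

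HMOX1, the inducible oxygenase, is listed at 0 in all 6 libraries, and so is LOC100621486, the row of ALAD. A listed 0 can be a failed estimate in these tables. The rows of HPRT1 and B2M, used by nearly every cell, and of POR and APOB, which hepatocytes express, are also listed at 0 in every library, as are 12080 of the 31694 rows (38.1%). No statement on HMOX1 or ALAD can be drawn from these values.

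**Figure D2:**
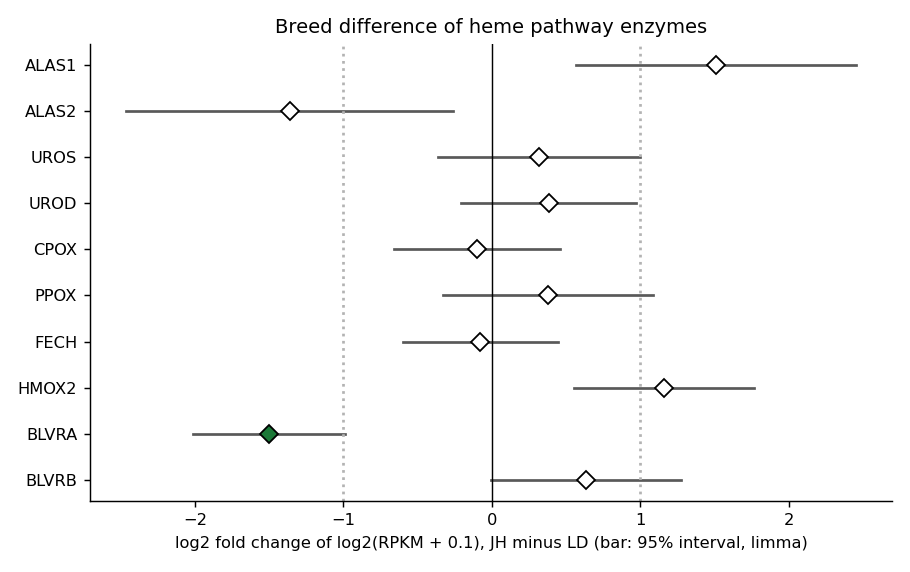
Log2 fold change of JH over LD (x axis, on the log2(RPKM + 0.1) scale) for the members tested and for ALAS2, BLVRA and BLVRB, with 95% intervals from limma as bars. The filled diamond marks the one gene called, BLVRA at -1.50. The intervals of ALAS1 and HMOX2 lie above 0, and dotted lines mark the fold change limit.

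By mean level over the 6 libraries the order was ALAS1 with 339.6 RPKM, HMOX2 with 88.6, CPOX with 43.3, UROS with 23.8, UROD with 22.7, FECH with 19.2 and PPOX with 8.46. ALAS1 lay above HMOX2, HMOX2 above CPOX, CPOX above UROS and FECH above PPOX in 6 of 6 libraries. UROS lay above UROD in 3 of 6 and UROD above FECH in 4 of 6, so these neighbours did not differ beyond their spread. ALAS1 ranked 240 among the 12993 genes tested and PPOX 4807.

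Ratios within a library do not depend on how that library was scaled, and they were chosen after the values were seen. The ratio of ALAS1 to the summed RPKM of UROS, UROD, CPOX, PPOX and FECH was 4.39, 3.40 and 4.21 in JH1 to JH3 and 0.713, 1.59 and 3.02 in LD1 to LD3. Every JH ratio lay above every LD ratio (exact permutation p = 0.1). The summed RPKM of these 5 enzymes had a JH mean of 122 ± 22.7 (SD, n = 3) and an LD mean of 112 ± 12.1 (SD, n = 3) (exact permutation p = 0.6), so the ratio followed ALAS1.

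The ratio of HMOX2 to the same 5 enzymes was 1.11, 0.966 and 0.909 in JH and 0.463, 0.485 and 0.488 in LD. The JH3 and LD3 libraries did not stand apart in this ratio. The ratio of ALAS1 to HMOX2 was 3.94, 3.52 and 4.64 in JH and 1.54, 3.27 and 6.18 in LD and overlapped (exact permutation p = 0.7). It was spread more widely among the LD pigs than among the JH pigs.

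**Figure D3:**
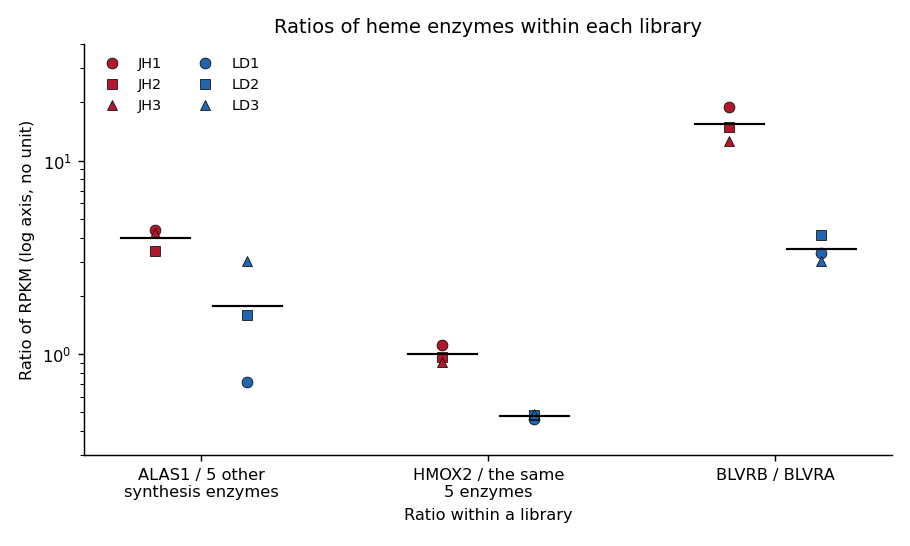
Ratios of RPKM within each library (y axis, log scale, no unit) for ALAS1 and for HMOX2 over the summed UROS, UROD, CPOX, PPOX and FECH, and for BLVRB over BLVRA. Red is JH, blue is LD, symbols mark the library and horizontal lines the mean of a breed. The LD values of HMOX2 lie between 0.463 and 0.488, and the JH values of BLVRB over BLVRA lie between 12.7 and 19.0, all above the LD values.

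Of 5 further heme enzymes tested, BLVRA was called lower in JH and none was called higher, beside 2.39% of all genes called in either direction. BLVRA, the reductase that turns biliverdin IX alpha into bilirubin, was 14.5, 11.1 and 12.1 RPKM in JH and 37.9, 33.6 and 35.3 RPKM in LD. The libraries of each breed lay close together and the breeds were far apart. The JH mean was 12.6 ± 1.78 RPKM (SD, n = 3) and the LD mean 35.6 ± 2.17 RPKM (SD, n = 3). In limma this was a log2 fold change of -1.50 (95% interval -2.02 to -0.99, adjusted p = 0.0135). The breeds did not overlap, with LD above JH, as in 12.5% of the genes tested. Its adjusted p was 0.0537 without JH2, 0.0874 without LD1 and 0.0552 without LD2, each in a fit of 5 libraries, while its log2 fold change stayed between -1.61 and -1.42 with each library left out.

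BLVRB, the second reductase, also known as flavin reductase, had 276, 165 and 153 RPKM in JH and 126, 138 and 107 RPKM in LD. Every JH value lay above every LD value, as in 10.8% of the genes tested. The log2 fold change of 0.64 (95% interval -0.0044 to 1.28, adjusted p = 0.283 from limma) did not pass. The ratio of BLVRB to BLVRA within a library was 19.0, 14.9 and 12.7 in JH and 3.33, 4.10 and 3.03 in LD (exact permutation p = 0.1).

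COX10, which starts the conversion of heme to heme A, had a log2 fold change of 0.46 (95% interval -0.60 to 1.51, adjusted p = 0.652 from limma) and rests on 10 to 31 reads per library.

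ALAS2, the form of the first enzyme known from red cell precursors, lay on the other side from ALAS1. It was 0.877, 0.910 and 3.26 RPKM in JH and 4.33, 2.62 and 4.59 RPKM in LD, with JH3 between the LD values. JH over LD gave -1.36 on the log2 scale (95% interval -2.46 to -0.26, adjusted p = 0.189 from limma). It was called without JH3 (log2 fold change -1.95, adjusted p = 0.0318). It rests on 10 to 72 reads per library.

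ALAS2 was one of 5 erythroid markers tested, of which 2 were called, both lower in JH, beside 2.39% of all genes called in either direction. HBB, the beta globin, was 98.3, 89.1 and 119 RPKM in JH and 389, 209.7 and 229.8 RPKM in LD (log2 fold change -1.39, adjusted p = 0.0459 from limma). TFRC, the transferrin receptor, which hepatocytes also express, was 3.87, 3.25 and 9.71 RPKM in JH and 65.3, 19.1 and 36.8 RPKM in LD (log2 fold change -2.82, adjusted p = 0.0301). Leaving out 1 library ended the call of HBB in every fit but the one without JH3 and that of TFRC in the fits without JH1, JH2, LD1 or LD3 (largest adjusted p 0.154 and 0.114). Without the filter on low values neither was called (adjusted p = 0.0673 and 0.0501 from limma), nor was HBB with a pseudocount of 0.01 (0.0560). HBM, another globin, had a log2 fold change of -1.25 (adjusted p = 0.183), and EPOR, the erythropoietin receptor, one of -0.16 (adjusted p = 0.867), both named after their values were seen.

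The summed RPKM of the 18 erythroid markers with a row was 98.3 to 135 in the JH libraries and 238 to 466 in the LD libraries, and HBB made up most of it in every library. Among the defining markers CA1 and KLF1 were at 0 in 5 of 6 libraries. GYPC is listed at 0 in all, which can be a failed estimate. HBZ, an embryonic globin named after its values were seen, had a mean of 0.509 RPKM in JH and 0.0746 in LD. It rests on 0 to 4 reads per library, too few to give a direction. The marker SLC4A1, also named after its values were seen, had 0.117 RPKM in JH and 0.456 in LD, on 2 to 16 reads. The summed level was lower in JH, where ALAS1 and HMOX2 were higher, and its part in the values of the other heme enzymes was not tested.

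FECH is an iron-sulphur protein, and 8 genes of iron-sulphur assembly were tested. Of these 1 was called, beside 2.39% of all genes tested. GLRX5, the mitochondrial glutaredoxin that passes clusters on and whose loss is known to impair heme synthesis, was called lower in JH. It had 80.7, 89.4 and 68.1 RPKM in JH and 208, 249.8 and 144 RPKM in LD (log2 fold change -1.31, adjusted p = 0.0446 from limma). It was called in 0 of the 6 fits that left out 1 library, with adjusted p from 0.0532 without LD3 to 0.168 without LD2. The call was also lost with a pseudocount of 0.01 (adjusted p = 0.0546 from limma) and without the filter on low values (0.0621).

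The other 7 assembly genes had log2 fold changes above 0 and none was called, with a median of 0.28 over all 8. The highest was ISCA1, which helps to build clusters of mitochondrial enzymes, with 125, 93.7 and 52.7 RPKM in JH and 52.8, 30.5 and 46.7 RPKM in LD (log2 fold change 1.01, adjusted p = 0.183 from limma). ISCU, the scaffold on which clusters are built, had the highest level of the list by mean RPKM and a log2 fold change of 0.21 (adjusted p = 0.744).

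Of 15 regulators tested none was called, 3 had an unadjusted p under 0.05, of which 2 were lower in JH. The count rests on limma, where 17.9% of all genes passed that limit in either direction. FOXO1, a transcription factor known to act on ALAS1 with the coactivator PPARGC1A in fasting, was 5.76, 2.70 and 4.63 RPKM in JH and 8.37, 9.24 and 9.31 RPKM in LD (log2 fold change -1.09, unadjusted p = 0.00576, adjusted p = 0.108). The breeds did not overlap, with LD above JH as in 12.5% of the genes tested, the direction opposite to ALAS1.

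CLPX, the mitochondrial unfoldase known to act on ALAS proteins, was 103, 75.4 and 66.9 RPKM in JH and 53.3, 39.3 and 48.4 RPKM in LD (log2 fold change 0.78, unadjusted p = 0.0135, adjusted p = 0.162 from limma). BACH1, the heme-binding repressor of HMOX1 and named here after its values were seen, had 1.55, 1.24 and 1.82 RPKM in JH and 2.64, 2.29 and 3.38 RPKM in LD (log2 fold change -0.81, adjusted p = 0.196). HNF4A, the hepatocyte nuclear receptor with the highest level of the list, had a log2 fold change of 0.22 (adjusted p = 0.682). PPARGC1A was matched to the row PPARGC-1 and is listed at 0 in all libraries, and no row was found for NR1D1.

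Among 16 genes of heme and porphyrin transport tested, none was called in limma. Only 1, LRP1, was at an unadjusted p under 0.05, beside 17.9% of all genes in either direction. LRP1, the receptor of the heme-hemopexin complex, had 3.56, 2.36 and 5.37 RPKM in JH and 5.91, 9.16 and 7.94 RPKM in LD (log2 fold change -1.06, adjusted p = 0.145). SLC25A39, a mitochondrial carrier, had a log2 fold change of 0.53 (adjusted p = 0.362). HP, haptoglobin, which binds free hemoglobin, was the highest of the list and had a log2 fold change of 0.31 (adjusted p = 0.691). The median log2 fold change of the list was -0.019.

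Of 19 heme proteins and their partners tested, 3 were called lower and 1 higher in JH, with a median log2 fold change of -0.68. Over all genes tested 2.39% were called, both directions together. CAT, catalase, was 1301, 1110.3 and 793 RPKM in JH and 2778, 2450.2 and 3144 RPKM in LD (log2 fold change -1.41, adjusted p = 0.0369 from limma). The cytochromes P450 CYP2A19 and CYP2B22 had log2 fold changes of -5.32 and -1.85 (adjusted p = 0.0310 and 0.0158). The P450s CYP2C33 and CYP2C49, named after their values were seen, lay on the other side with 0.99 and 1.26 (adjusted p = 0.0602 and 0.163) and were not called. CYP2C42, also named after its values were seen, had -2.88 (adjusted p = 0.149 from limma) and was not called. Of the 19 genes, 15 had log2 fold changes below 0 and 4 above. CYP2A19 was 235, 22.5 and 8.16 RPKM in JH and 1758, 1269.9 and 1251 RPKM in LD.

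CYCS, cytochrome c of the respiratory chain, was the heme protein called higher in JH, with 110.02, 99.9 and 73.0 RPKM in JH and 39.9, 41.1 and 33.3 RPKM in LD (log2 fold change 1.29, adjusted p = 0.0364 from limma). Members of P450 families can share reads, so the calls of CYP2A19 and CYP2B22 are uncertain. The largest adjusted p with 1 library left out was 0.14 for CAT, 0.127 for CYCS, 0.0875 for CYP2B22 and 0.121 for CYP2A19. The calls were lost without JH2, LD1, LD2 or LD3 for CAT and CYP2A19, without any single library but JH3 for CYCS, and without any single LD library for CYP2B22. CAT and CYP2A19 were also not called without the filter on low values (adjusted p = 0.127 and 0.0548 from limma). The log2 fold change of CYP2A19 was -6.69 without JH1 and -4.27 without JH3.

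Of 6 genes of bilirubin disposal tested none was called in limma, with 2 at an unadjusted p under 0.05, both lower in JH, where 9.51% of all genes were, and a median log2 fold change of -0.50. SLCO2B1, an organic anion transporter, had 57.5, 83.9 and 73.7 RPKM in JH and 111, 134 and 122 RPKM in LD (log2 fold change -0.78, adjusted p = 0.139). ABCC3, an exporter of bilirubin glucuronides to the blood, had a log2 fold change of -0.72 (adjusted p = 0.192). GSTA1, which binds bilirubin in the cytosol, was the highest of the list and had a log2 fold change of -0.59 (adjusted p = 0.355).

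HMOX1 is a target of NRF2, and 12 other NRF2 targets were tested with none called in limma. At an unadjusted p under 0.05, 2 were higher and 2 lower in JH, beside 8.35% and 9.51% of all genes. The median log2 fold change of the list was -0.13. GCLC, of glutathione synthesis, had a log2 fold change of -0.81 (adjusted p = 0.148) and PRDX1, a peroxiredoxin, one of 0.66 (adjusted p = 0.181). FTL, the ferritin light chain that stores iron freed from heme, was the highest with a log2 fold change of -0.083 (adjusted p = 0.923).

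**Figure D4:**
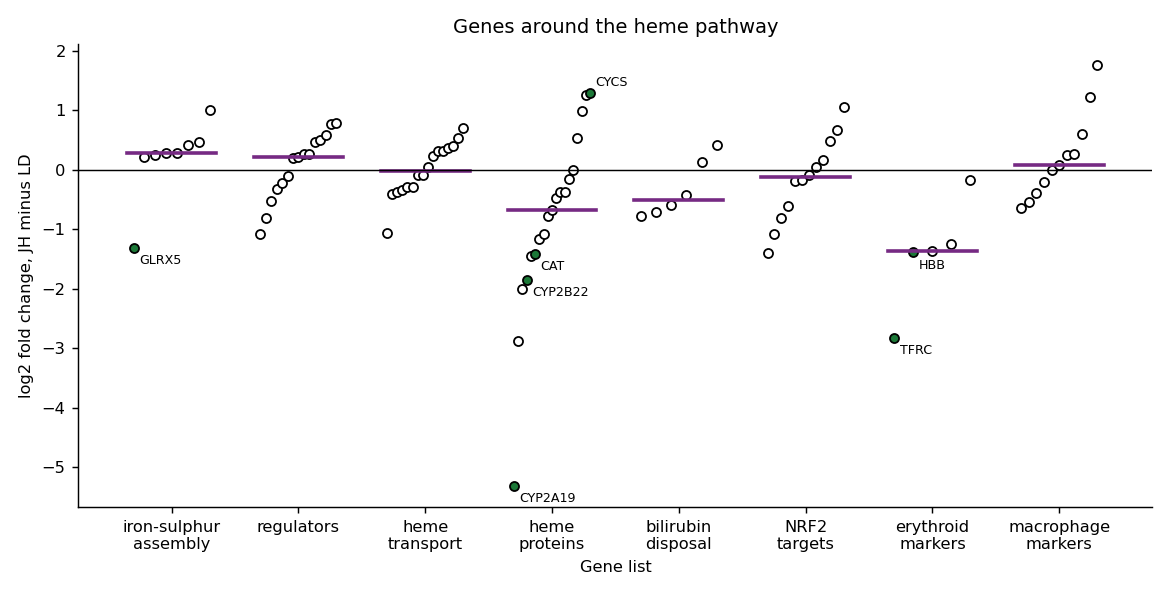
Log2 fold change of JH over LD (y axis) for each tested gene of 8 lists around the heme pathway (x axis), with filled points for genes called and a purple line at the median of a list. The heme proteins reach from -5.32 for CYP2A19 to 1.29 for CYCS, and the erythroid markers tested all lie below 0.

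Markers of the other liver cells also differed, and their part in the values of the heme enzymes was not tested. Of 11 macrophage markers, the cells known to clear red cells with HMOX1, none was called in limma. An unadjusted p under 0.05 was found for 3, of which 1 was lower in JH, beside 17.9% of all genes in either direction. CD5L had a log2 fold change of -0.65 (adjusted p = 0.179), C1QB one of 1.76 (adjusted p = 0.234) and C1QC, the highest, one of 0.081 (adjusted p = 0.931). CD163, the hemoglobin scavenger receptor, is listed at 0. The summed RPKM of the 14 macrophage markers with a row overlapped, with 1078 to 2291 in JH and 1586 to 1809 in LD.

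Of 12 hepatocyte markers tested none was called, with a median log2 fold change of -0.15 and 4 of the 12 above 0. TF, SERPINA1 and ALB, the highest, had log2 fold changes of -1.13, -0.80 and -0.67 (adjusted p = 0.153, 0.169 and 0.258 from limma). APOA1, an apolipoprotein named after its values were seen, had one of 0.90 (adjusted p = 0.203). Its JH values all lay above its LD values, as in 10.8% of the genes tested. The called markers of other cell types were all lower in JH, beside 2.39% of all genes called in either direction. They were EPCAM with a log2 fold change of -1.55 among 4 biliary markers tested, and COL1A1, COL3A1 and LRAT with -2.77, -1.75 and -1.72 among 9 stellate markers. With 1 library left out they were called in 1, 5, 4 and 1 of 6 fits, in that order, and each call was lost without LD1 (adjusted p = 0.115, 0.0506, 0.0881 and 0.163 from limma). EPCAM and LRAT were also not called without the filter on low values (adjusted p = 0.0592 and 0.0632), and LRAT neither with a filter at 1 RPKM (0.0507) nor with a pseudocount of 1 (log2 fold change -0.94). KRT19 and SPP1, the latter the highest biliary marker, had log2 fold changes of -1.72 and -1.11 (adjusted p = 0.0716 and 0.248). None of 7 endothelial markers was called, and PECAM1, KDR and CLEC4G, the highest, had log2 fold changes of -0.81, -0.91 and -0.12. The summed stellate markers were 77.3 to 87.7 RPKM in JH and 175 to 340.2 RPKM in LD.

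Of 8 genes often used as references 1 was called, beside 2.39% of all genes tested. This was GAPDH, with 1392, 1242 and 866 RPKM in JH and 464, 522 and 322 RPKM in LD (log2 fold change 1.42, adjusted p = 0.0431 from limma). EEF1A1, the highest of them, had a log2 fold change of 0.44 (adjusted p = 0.393) and RPLP0 one of 0.59 (adjusted p = 0.323). Leaving out any library but JH3 ended the call of GAPDH, with adjusted p up to 0.161, as did a pseudocount of 0.01 (adjusted p = 0.0528 from limma) and no filter on low values (0.0945).

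The genes whose pattern over the 6 libraries was most like that of HMOX2 were SPG21, IARS2 and CMPK1, with Pearson r of 0.997, 0.997 and 0.996 on log2(RPKM + 0.1) among 12992 other genes. SPG21 ran from 16.5 RPKM in JH1 to 2.30 in LD3 and shares the order JH1, JH2, JH3, LD1, LD2, LD3 with HMOX2. Those most like ALAS1 were MAK16, USP2 and LOC102163816, with r of 0.989, 0.985 and 0.972. USP2, a ubiquitin protease, was 18.6, 7.89 and 9.63 RPKM in JH and 0.905, 3.20 and 7.82 RPKM in LD. With 6 libraries and this many genes such r are a description of these libraries.

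**Figure D5:**
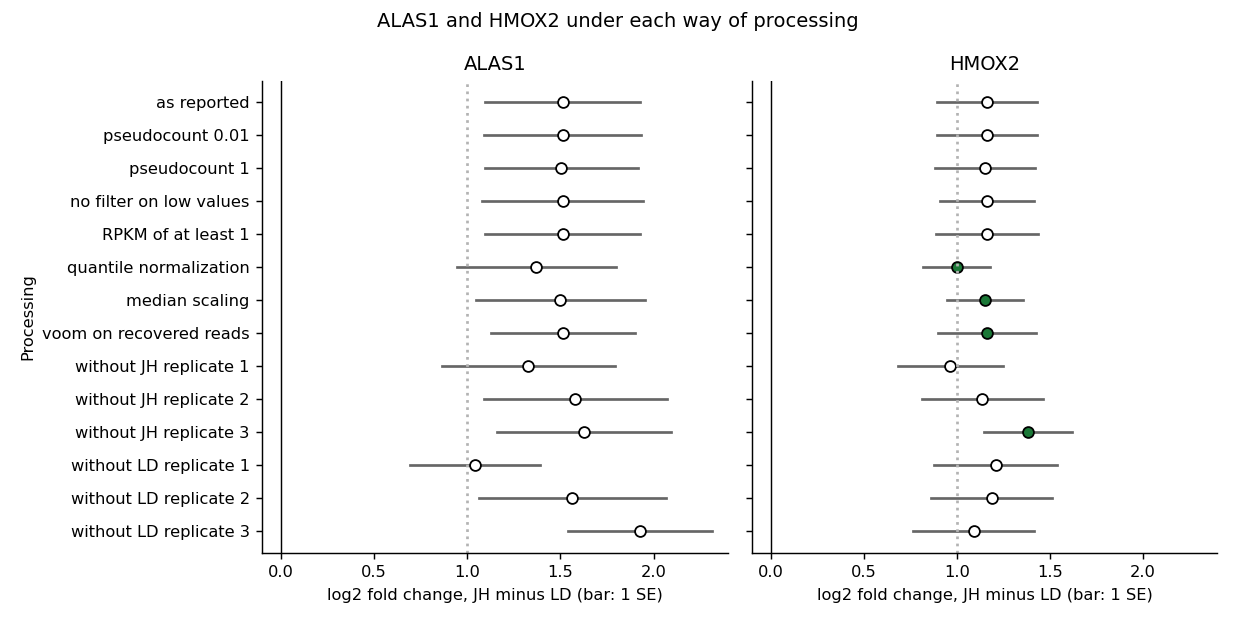
Log2 fold change of ALAS1 (left) and HMOX2 (right), JH over LD, on the x axis. The y axis lists each way of processing except the replicate block. Bars are 1 standard error, and filled points mark where the gene was called. ALAS1 is filled nowhere and ranges from 1.04 to 1.93, and HMOX2 ranges from 0.97 to 1.38.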

How the data were processed

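Liver mRNA of 3 JH and 3 LD pigs was sequenced as 50 bp single reads. Filtered reads were mapped by the authors with TopHat 2.0.13 on the Sus scrofa 10.2 build, gene reads were summed by gfold, and one RPKM column was deposited for each pig. Whether counting used strand is not given in the sources used here. The miRNA tables were not used. Libraries were grouped by breed from their labels. Each library came from a different pig. The p-values rest on the spread between these libraries only, which holds differences between pigs and between library preparations together. In limma that spread is moderated over all genes tested.

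A gene was kept where 3 or more libraries reached 0.5 RPKM. The test was the moderated linear model of limma 3.58.1 under R 4.3.3, trend option on, fitted to log2(RPKM + 0.1), with Benjamini-Hochberg adjustment over all genes tested. The study used DEGseq on counts, and its threshold was kept. Whole reads were recovered for 17907 of 19614 genes above 0 (91.3%) by a search for the read totals and a length per gene, and they describe counting error only. Both steps were tested on simulated data. Alternatives were other pseudocounts and filters, quantile and median scaling, the replicate block, voom on recovered reads, and each library left out.

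The members and lists were chosen with earlier results of these data known. Of 196 listed symbols 160 were found, 15 more were matched through RefSeq and 21 were absent. Each list was named by its called genes, its highest gene and the 2 with the smallest p, and likeness by Pearson r. Some listed genes are counted in their lists but not reported here. No sequences are shown. Python 3.11.15, pandas 2.3.3, numpy 2.4.6, scipy 1.17.1 and matplotlib 3.10.9 were used.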

Additional observations from a re-analysis of the deposited data

How the results depend on the processing

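The count of members called was 0 under every alternative run, and the count at an unadjusted p under 0.05 was 1 in each, or 2 when HMOX2 was counted from the row HO2, a choice made after seeing the data. HMOX2 passed under 5 of 14 alternatives, with log2 fold changes of 1.00 under quantile normalization, 1.15 under median scaling, 1.16 with voom on recovered reads and 1.16 with the replicate block (adjusted p = 0.0281, 0.0278, 0.0343 and 0.0488 from limma). With 1 library left out its log2 fold change ran from 0.97 to 1.38. The cause of the change in call was not tested. ALAS1 passed under none of 14, with adjusted p from 0.0569 to 0.249. CPOX turned to 0.086 without JH3 and FECH to 0.030 without LD2, and with 1 library left out they ran from -0.21 to 0.086 and from -0.17 to 0.030. Same-numbered JH and LD libraries deviated together with r between -0.016 and 0.177 across genes. Such an r cannot show a shift shared by all genes of a library. Median log2 levels were alike by number, with 2.36 and 2.35 in JH1 and LD1, 2.42 and 2.39 in JH2 and LD2, and 2.10 in JH3 and LD3. RN18S had the same order of numbers in both breeds. No pairing of pigs is stated, so the main fit left the numbers out, and what they stand for was not tested. The block changed the count of genes called from 310 to 253 and ended the calls of CAT, HBB and LRAT (adjusted p = 0.0571, 0.0526 and 0.0640 from limma). It gave HMOX2 a standard error of 0.20 against 0.27, and ALAS1 one of 0.43 against 0.42. Over all genes, 199 were called with the pseudocount at 0.01, 200 without the filter, and 63 to 403 with 1 library left out. FECH, PPOX and ALAS2 rest on few reads, with 62 to 97, 97 to 200 and 10 to 72 per library in that order. The part of counting error in their spread was not tested.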
